A study of Ovis aries with 6 samples.

Results

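Interferon response genes are the genes that a cell switches on when interferon, or viral RNA inside the cell, is sensed, and they were followed here in the choroid plexus of ewes, the tissue that makes cerebrospinal fluid. A list of 34 gene symbols was looked up in the deposited table of raw counts, and a listed gene was kept when its mean level over the 6 pools was at least 0.2 CPM (a gene's counts scaled to the library's total). Of the 34 symbols 31 were found, and all 31 were above that level and had enough counts to be tested, out of 33609 genes listed and 18019 tested. USP18, SAMD9 and BST2 were not matched by symbol and are not among the 31.

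PolyA RNA was sequenced from thyroidectomised ewes held in long days (THX), control ewes in long days with the thyroid in place (Long), and control ewes in short days with the thyroid in place (Short). The design text gives 8 ewes per group and 7 in the THX group, although the total it states is larger than the sum of these sizes. RNA extracted from each ewe was mixed in equal parts into 2 pools per group, each of 3 to 4 ewes, so a pool is an average over ewes and the spread between ewes was not measured. Neither breed nor age is given in the labels.

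Interferon signalling starts with sensors such as RIG-I and MDA5, which bind viral RNA and cause interferons to be secreted. Type I interferons bind the receptor pair IFNAR1 and IFNAR2, whose kinases JAK1 and TYK2 activate STAT2 and related factors. These join IRF9 in a complex that binds interferon-stimulated response elements in the promoters of the genes described here, whereas interferon gamma acts in part through IRF1. In mice a type I interferon response of the choroid plexus is known from ageing.

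The pools held from 48282883 to 82100653 counts, and Short pool 1 had the most. KLF9, a thyroid hormone target, was at 36.1 and 34.1 CPM in THX pools, against 93.2 and 89.9 CPM in Long pools and 99.98 and 88.3 CPM in Short pools (values of a group are given as pool 1, then pool 2, throughout). HR, the hairless corepressor and another such target, was at 3.36 and 2.76 CPM in THX pools, against 23.7 and 23.4 CPM in Long pools and 25.6 and 25.3 CPM in Short pools. Both THX pools were thus low in these targets. The summed level of 10 choroid plexus epithelium markers ran from 90219 to 143793 CPM over the pools, nearly all of it transthyretin. CPM values are scaled by TMM factors, which ran from 0.946 to 1.04. No sequence is shown, and levels are compared between pools but not between genes, since counts were not divided by transcript length.

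The 31 genes did not divide the 3 groups so much as single pools. THX pool 1 was the highest of the 6 pools in 22 of the 31 genes (71.0%), where it was the highest in 14.1% of all tested genes. Short pool 1 was the lowest in 17 of the 31 (54.8%), against 24.1% of all tested genes. The median of the 31 genes, on a log2 scale centred on each gene's own mean over the pools, was 0.29 and −0.05 in THX pools, −0.13 and −0.00 in Long pools, and −0.29 and 0.07 in Short pools. The same median over all tested genes lay between −0.0041 and 0.0031 in every pool. Pool 1 thus stood above pool 2 among THX pools and below it among Short pools.

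**Figure D1:**
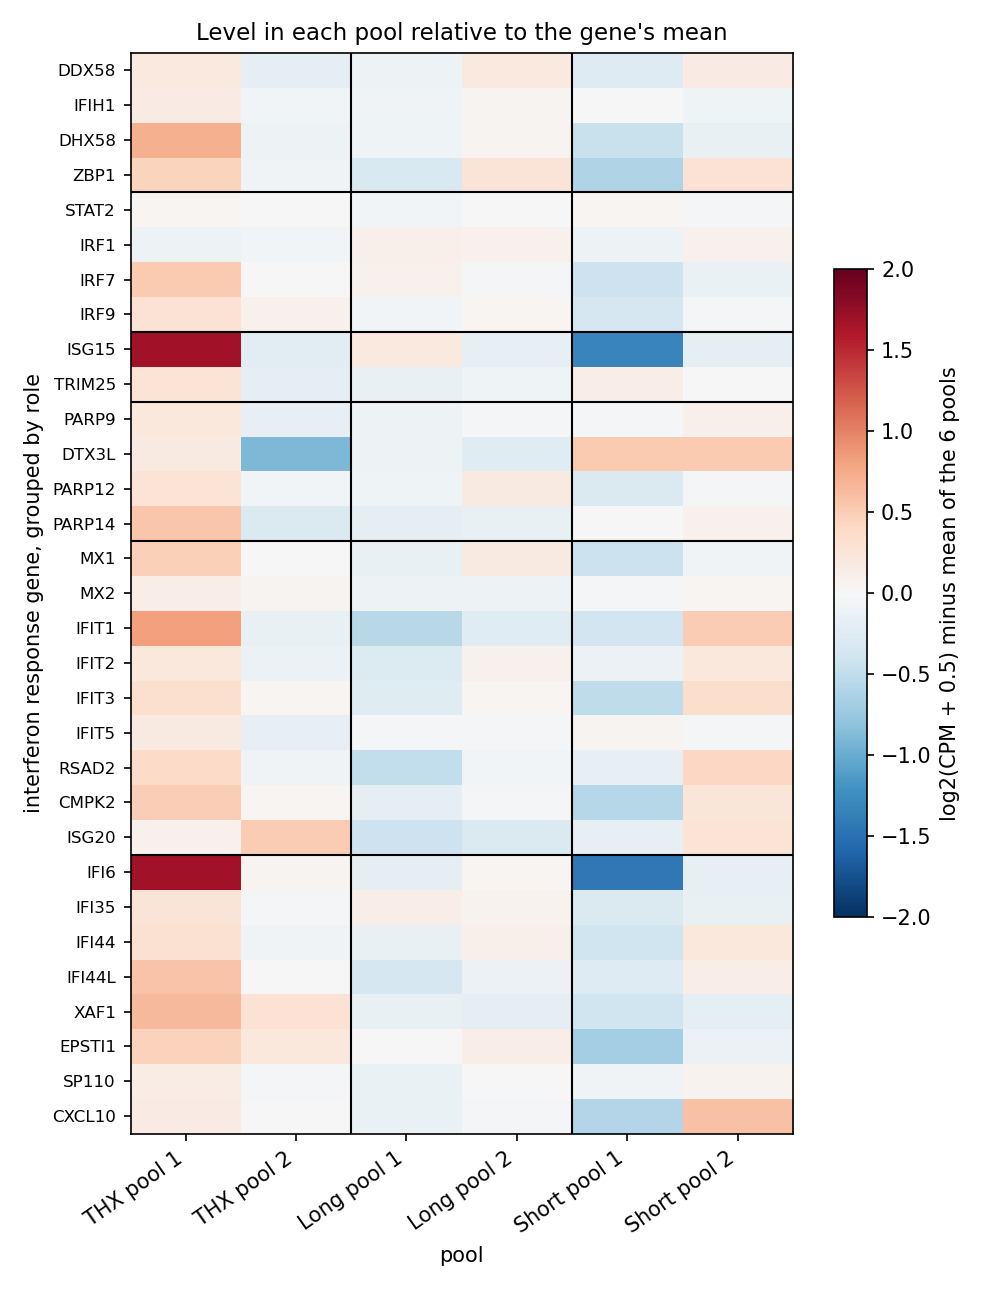
Level of each of the 31 interferon response genes (rows, grouped by role with lines between roles) in each pool (columns), as log2(CPM + 0.5) minus the gene's mean over the 6 pools. THX pool 1 is the highest pool in 22 genes and Short pool 1 is the lowest in 17, with IFI6 and ISG15 the most uneven rows.

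Within the THX group, 29 of the 31 genes were higher in pool 1 than in pool 2, against 49.2% of all tested genes, and the median ratio of pool 1 to pool 2 was 1.32, against 0.996 over all tested genes. For 26 of the 31 the 95% exact binomial interval of that ratio lay above 1, against 28.6% of all tested genes. These intervals cover counting error only. IRF1 and ISG20 were the exceptions, with ratios of 0.964 and 0.584. Within the Short group 27 of the 31 were lower in pool 1 than in pool 2, with a median ratio of 0.802, and for 23 the interval lay below 1, against 23.9% of all tested genes. Within the Long group 24 of the 31 were lower in pool 1, with a median ratio of 0.907, and for 14 (45.2%) the interval lay below 1, against 18.2% of all tested genes. Long pools were closer to each other than THX or Short pools over all tested genes too, where the median absolute log2 ratio was 0.20 in THX, 0.11 in Long and 0.16 in Short pools. The estimated biological coefficient of variation, which measures the spread within groups beyond counting, had a median of 0.178 over the 31 genes and 0.123 over all tested genes.

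**Figure D2:**
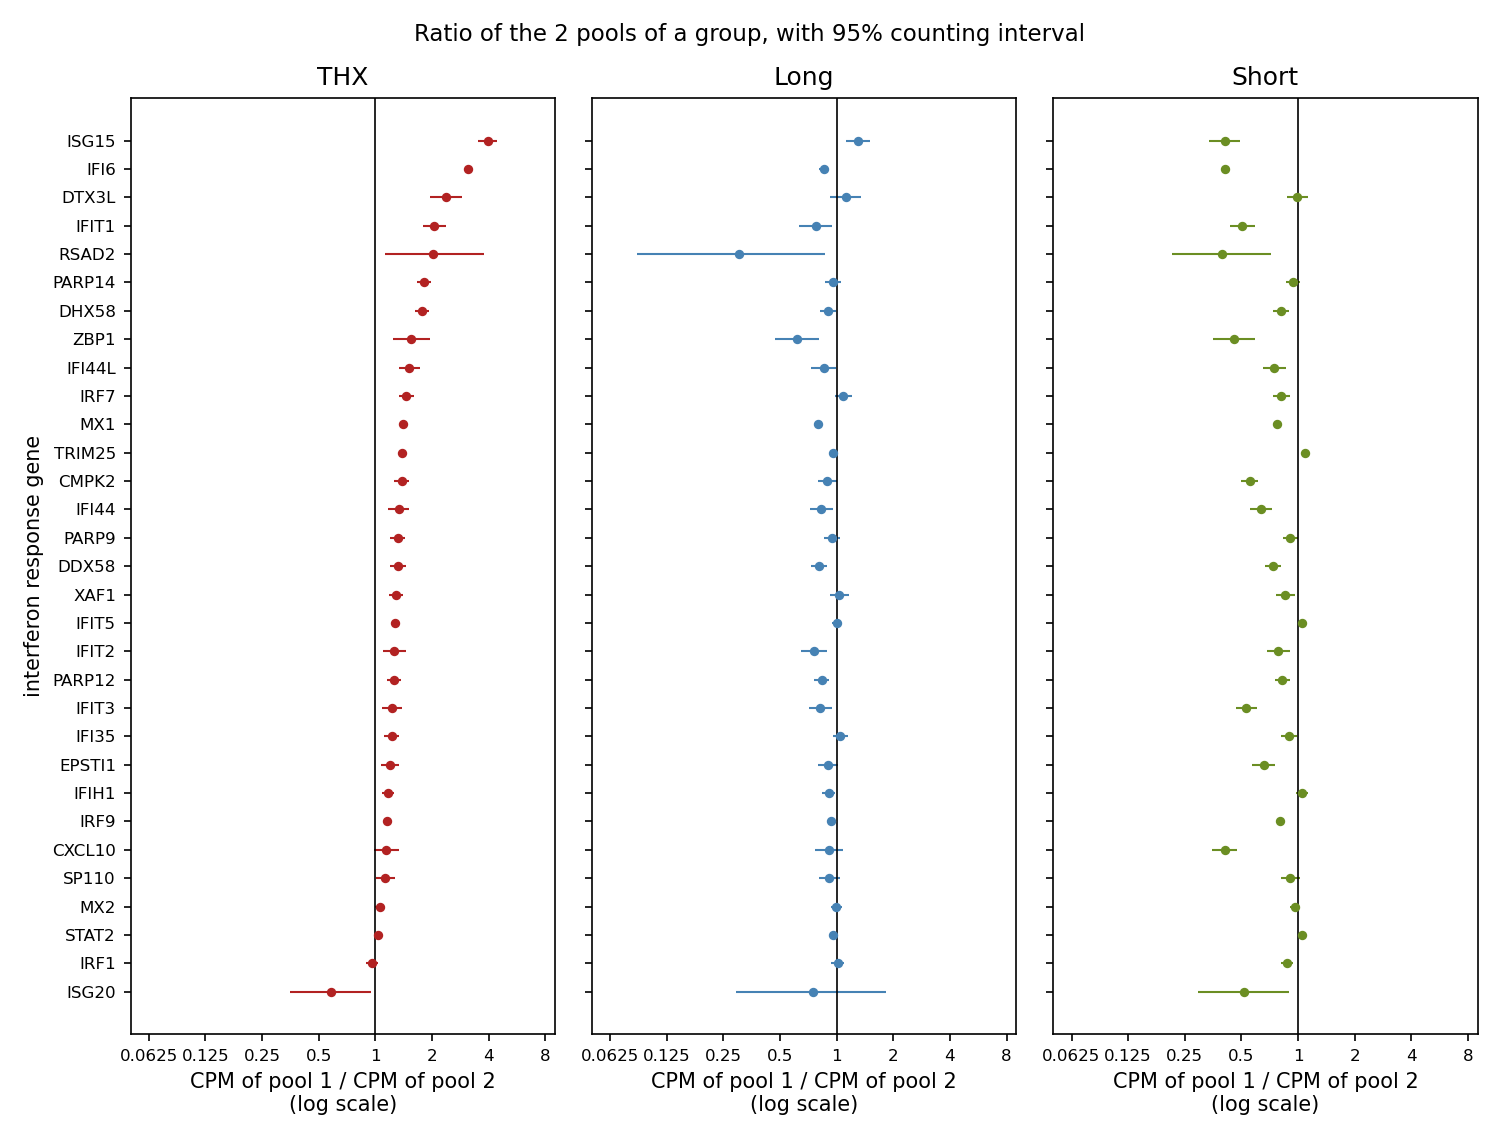
Ratio of the CPM of pool 1 to that of pool 2 for each of the 31 genes (rows, in order of the THX ratio) within the THX, Long and Short groups, on a log scale, with 95% exact binomial counting intervals as bars. Nearly all THX ratios lie right of 1, up to 3.96 for ISG15, and most Short ratios lie left of 1.

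Several of the 31 genes are next to each other in the sheep gene table used for names (assembly ARS-UI_Ramb_v3.0). IFIT2, IFIT3, IFIT1 and IFIT5 form a run of neighbours, as do PARP9, DTX3L and PARP14. MX2 and MX1, IFI44L and IFI44, and CMPK2 and RSAD2 are neighbouring pairs. Whether neighbours vary together was not tested. Taking 1 gene of each run left 23 genes, of which 17 were highest in THX pool 1 and 14 lowest in Short pool 1. Reads shared between related copies, as among the IFIT genes, could be left out or split by the counting. Its strand setting is not given in the sources used here.

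Among the sensors, DHX58 and ZBP1 were the more uneven. DHX58 encodes LGP2, a helicase that modulates the other RNA sensors, and was at 24.6 and 13.9 CPM in THX pools, 14.0 and 15.6 CPM in Long pools, and 10.9 and 13.4 CPM in Short pools. ZBP1, a sensor of left-handed nucleic acids that can start cell death, was at 3.22 and 2.08 CPM in THX pools, 1.69 and 2.74 CPM in Long pools, and 1.29 and 2.81 CPM in Short pools. THX pool 1 was the highest and Short pool 1 the lowest for both. DDX58, which encodes RIG-I, was at 15.5 and 11.7 CPM in THX pools, 12.6 and 15.6 CPM in Long pools, and 11.1 and 15.1 CPM in Short pools. IFIH1, which encodes MDA5, was at 26.3 and 22.5 CPM in THX pools, 22.2 and 24.4 CPM in Long pools, and 23.2 and 22.1 CPM in Short pools. For ZBP1, DDX58 and IFIH1 the 3 groups overlapped in every comparison. For DHX58 the THX and Long pools overlapped, and both Short pools were lower.

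The transcription factors differed in how far the pools spread. IRF9, the DNA-binding partner of STAT2, was at 82.7 and 72.0 CPM in THX pools, 65.3 and 69.6 CPM in Long pools, and 53.3 and 66.5 CPM in Short pools. IRF7, which drives further interferon production, was at 19.2 and 13.2 CPM in THX pools, 14.1 and 13.0 CPM in Long pools, and 9.82 and 12.03 CPM in Short pools. Both THX pools lay above both Short pools for these factors. STAT2, the signalling subunit of the same complex, was nearly flat, at 68.2 and 65.8 CPM in THX pools, 63.5 and 66.1 CPM in Long pools, and 68.3 and 65.1 CPM in Short pools. IRF1, which responds mainly to interferon gamma, was at 21.9 and 22.8 CPM in THX pools, 25.5 and 25.2 CPM in Long pools, and 21.9 and 25.1 CPM in Short pools. IRF1 was lower in both THX pools than in both Long pools and was not highest in THX pool 1.

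ISG15, a ubiquitin-like protein that is joined to other proteins during the response, was at 21.8 and 5.51 CPM in THX pools, 7.48 and 5.74 CPM in Long pools, and 2.28 and 5.60 CPM in Short pools. The ratio of THX pool 1 to THX pool 2 was 3.96 (95% counting interval 3.52 to 4.46), and 137 of the tested genes had a higher one. Without THX pool 1 its THX level was below both Long pools. TRIM25, a ubiquitin ligase that acts on RIG-I, was at 105 and 75.6 CPM in THX pools, 78.3 and 81.5 CPM in Long pools, and 95.4 and 87.5 CPM in Short pools. Short pool 1 was the second highest for TRIM25, unlike for ISG15. USP18, which removes ISG15 from proteins, is the name that the gene table gives to an identifier listed without this symbol (101103965). It was at 10.2 and 8.04 CPM in THX pools, 8.49 and 8.34 CPM in Long pools, and 5.82 and 8.56 CPM in Short pools, with THX pool 1 again the highest and Short pool 1 the lowest.

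The PARP genes and DTX3L, some of them neighbours, were each higher in THX pool 1 than in THX pool 2. They differed in how the Short pools ranked. PARP14, which modulates interferon-dependent transcription, was at 24.7 and 13.6 CPM in THX pools, 14.5 and 15.1 CPM in Long pools, and 16.7 and 17.8 CPM in Short pools. PARP12, an antiviral member of the family, was at 20.2 and 16.0 CPM in THX pools, 15.8 and 18.9 CPM in Long pools, and 13.6 and 16.4 CPM in Short pools. PARP9, which forms a complex with DTX3L, was at 17.3 and 13.1 CPM in THX pools, 13.8 and 14.6 CPM in Long pools, and 14.5 and 16.0 CPM in Short pools. THX pool 1 was the highest for all 3. DTX3L, a ubiquitin ligase, was at 5.56 and 2.35 CPM in THX pools, 4.50 and 4.03 CPM in Long pools, and 7.16 and 7.21 CPM in Short pools. Both Short pools were higher than all THX and Long pools for DTX3L, an order that PARP9 did not show.

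Of the antiviral effectors, MX1, a GTPase that blocks virus replication, was at 85.5 and 60.9 CPM in THX pools, 55.4 and 69.9 CPM in Long pools, and 45.2 and 58.6 CPM in Short pools. MX2, its neighbour and relative, was at 36.2 and 34.2 CPM in THX pools, 30.6 and 30.7 CPM in Long pools, and 32.5 and 33.7 CPM in Short pools. The pools of a group were close for MX2, with a THX ratio of 1.06, and apart for MX1, with a THX ratio of 1.40. CMPK2, a mitochondrial nucleotide kinase, was at 16.8 and 12.1 CPM in THX pools, 10.3 and 11.5 CPM in Long pools, and 7.73 and 14.0 CPM in Short pools. RSAD2, which encodes viperin and is the neighbour of CMPK2, had 33 and 19 counts in THX pools, 5 and 16 in Long pools, and 20 and 30 in Short pools. ISG20, an exonuclease that degrades viral RNA, had 26 and 52 counts in THX pools, 10 and 13 in Long pools, and 26 and 30 in Short pools. RSAD2 and ISG20 were the members with the fewest counts, and their ratios carry the widest counting intervals.

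The IFIT proteins bind viral RNA. IFIT1, which recognises RNA without a complete cap, was at 9.10 and 4.41 CPM in THX pools, 3.21 and 4.14 CPM in Long pools, and 3.70 and 7.31 CPM in Short pools. IFIT3, a partner of IFIT1, was at 9.79 and 7.94 CPM in THX pools, 6.44 and 7.88 CPM in Long pools, and 5.26 and 9.92 CPM in Short pools. Short pool 2 was among the high pools for both, and was the highest for IFIT3. IFIT2 was at 6.93 and 5.48 CPM in THX pools, 4.83 and 6.39 CPM in Long pools, and 5.45 and 6.95 CPM in Short pools. IFIT5 was at 46.2 and 36.2 CPM in THX pools, 40.2 and 39.9 CPM in Long pools, and 42.1 and 40.0 CPM in Short pools. The groups overlapped for IFIT2 and IFIT5 in every comparison.

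The largest gaps between pools were those of ISG15 and IFI6. IFI6, an interferon-induced protein that inhibits cell death and flavivirus replication, was at 187 and 60.1 CPM in THX pools, 50.8 and 59.7 CPM in Long pools, and 21.3 and 51.7 CPM in Short pools. The THX ratio of pool 1 to pool 2 was 3.12 (95% counting interval 3.01 to 3.24), and the Short ratio was 0.412 (0.387 to 0.437). The other 4 pools lay between 50.8 and 60.1 CPM. XAF1, an antagonist of the apoptosis inhibitor XIAP, had another pattern, at 18.4 and 14.2 CPM in THX pools, 10.3 and 9.97 CPM in Long pools, and 8.57 and 10.04 CPM in Short pools. Both THX pools were higher than all 4 other pools for XAF1. EPSTI1, a protein first described in breast stroma, was at 12.3 and 10.2 CPM in THX pools, 8.65 and 9.64 CPM in Long pools, and 5.24 and 7.99 CPM in Short pools. Its pools fell in the order THX, Long and Short without overlap.

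IFI44 was at 9.01 and 6.78 CPM in THX pools, 6.39 and 7.71 CPM in Long pools, and 5.35 and 8.39 CPM in Short pools. IFI44L, its neighbour and relative, was at 10.6 and 7.00 CPM in THX pools, 5.48 and 6.42 CPM in Long pools, and 5.80 and 7.73 CPM in Short pools. Both were highest in THX pool 1 and the THX and Short groups overlapped. IFI35, a partner of the adaptor NMI, was at 17.6 and 14.4 CPM in THX pools, 16.0 and 15.3 CPM in Long pools, and 11.8 and 13.1 CPM in Short pools. SP110, a nuclear body protein, was at 10.2 and 8.98 CPM in THX pools, 8.30 and 9.07 CPM in Long pools, and 8.66 and 9.54 CPM in Short pools. CXCL10, a chemokine that draws T cells, was at 6.02 and 5.26 CPM in THX pools, 4.78 and 5.24 CPM in Long pools, and 3.36 and 8.23 CPM in Short pools. The Short pools held both the lowest and the highest value for CXCL10.

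**Figure D3:**
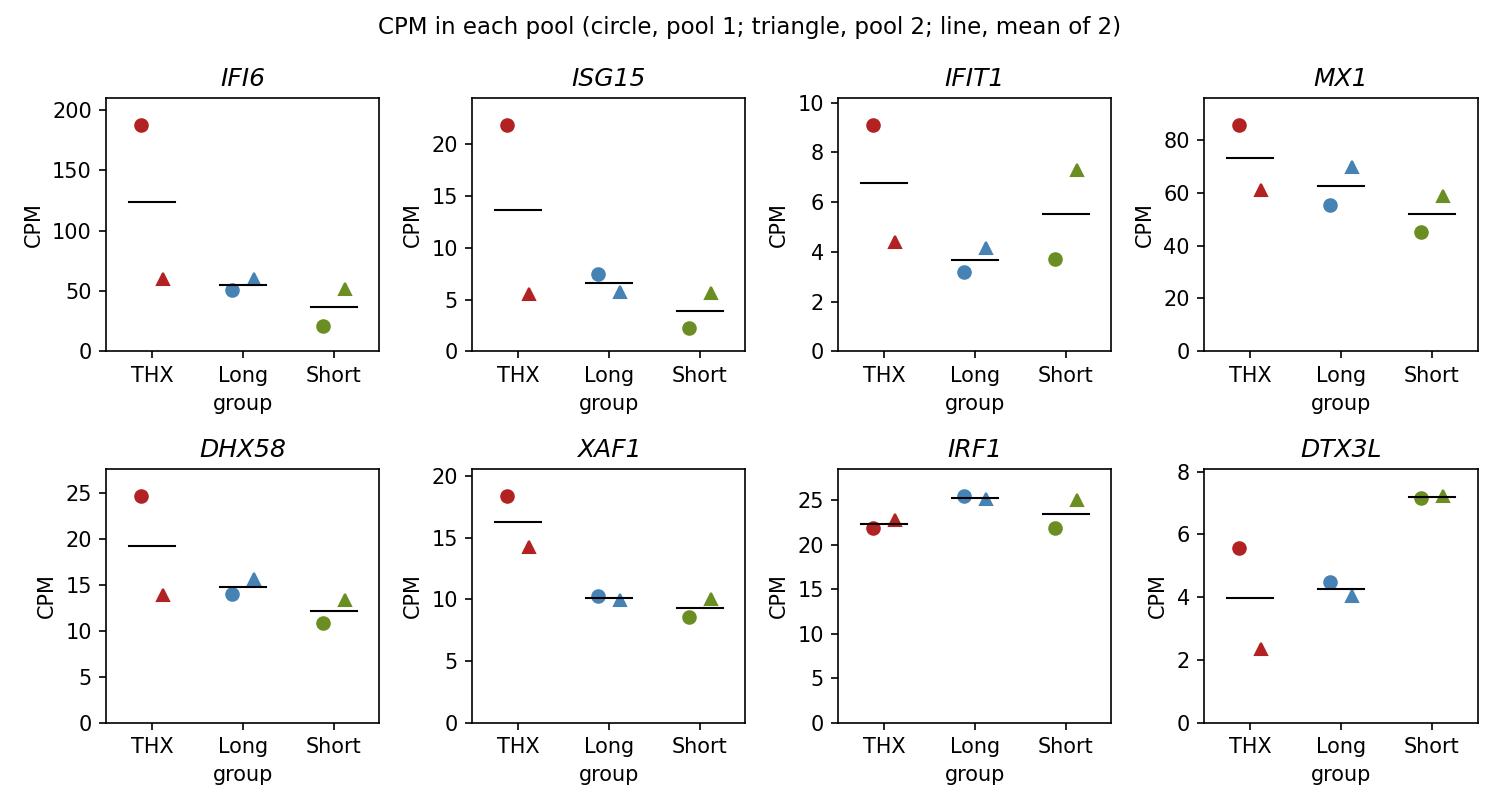
CPM of 8 interferon response genes in the THX, Long and Short groups, with pool 1 as a circle, pool 2 as a triangle and the mean of the 2 as a line; each axis starts at 0. IFI6, ISG15, IFIT1, MX1 and DHX58 have 1 high THX pool, XAF1 is higher in both THX pools than in the other 4, and IRF1 and DTX3L are highest in Long and Short pools.

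The comparison of THX with Long pools asks what loss of the thyroid does at a constant day length. None of the 31 genes passed the quasi-likelihood test of edgeR at an adjusted p of 0.05 (Benjamini-Hochberg over all 18019 tested genes), where 0.283% of all tested genes did (0.0499% higher and 0.233% lower). The lowest adjusted p was 0.229, for XAF1 (log2 difference 0.68, SE 0.161). Unadjusted p was under 0.05 for 3 of the 31, XAF1, ISG20 and MX2, all higher in THX pools, which is 9.68% of them, against 9.08% of all tested genes (4.16% higher and 4.92% lower). DESeq2 called 1 of the 31, XAF1 (adjusted p = 0.0136), beside 448 of all 18019 tested genes. Limma-voom called none of the 31, beside 45 of all tested genes. Over the alternatives, the adjusted p of XAF1 ran from 0.0136 to 0.834.

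In log2 difference 28 of the 31 genes lay above 0, with a median of 0.20, against 50.3% of all tested genes and a median of 0.00. Without THX pool 1 the median was −0.04 and 14 of the 31 lay above 0, so the upward median rested on that pool. All 9 antiviral effectors and all 8 of the other induced genes lay above 0 with both THX pools in the fit. The 3 genes below 0 were IRF1 (−0.18), DTX3L (−0.11) and DDX58 (−0.05). The THX and Long pools did not overlap for 12 of the 31, 11 above and IRF1 below, where 37.2% of all tested genes did not overlap (18.5% above and 18.7% below).

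ISG20 had the largest log2 difference (1.57, SE 0.519, adjusted p = 0.414), from at most 52 counts per pool. RSAD2 was at 1.16 (SE 0.738, adjusted p = 0.761), IFI6 also at 1.16 (SE 0.560, adjusted p = 0.62) and ISG15 was at 1.05 (SE 0.641, adjusted p = 0.744). For ISG15 the estimate was −0.26 without THX pool 1 and 1.73 without THX pool 2. XAF1 was at 0.49 without THX pool 1 and 0.86 without THX pool 2, so it kept its sign in either case. Among the rest, IFIT1 (0.88), IFI44L (0.57), CMPK2 (0.41), DHX58 (0.38) and PARP14 (0.37) had the largest estimates, with adjusted p from 0.569 to 0.803.

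**Figure D4:**
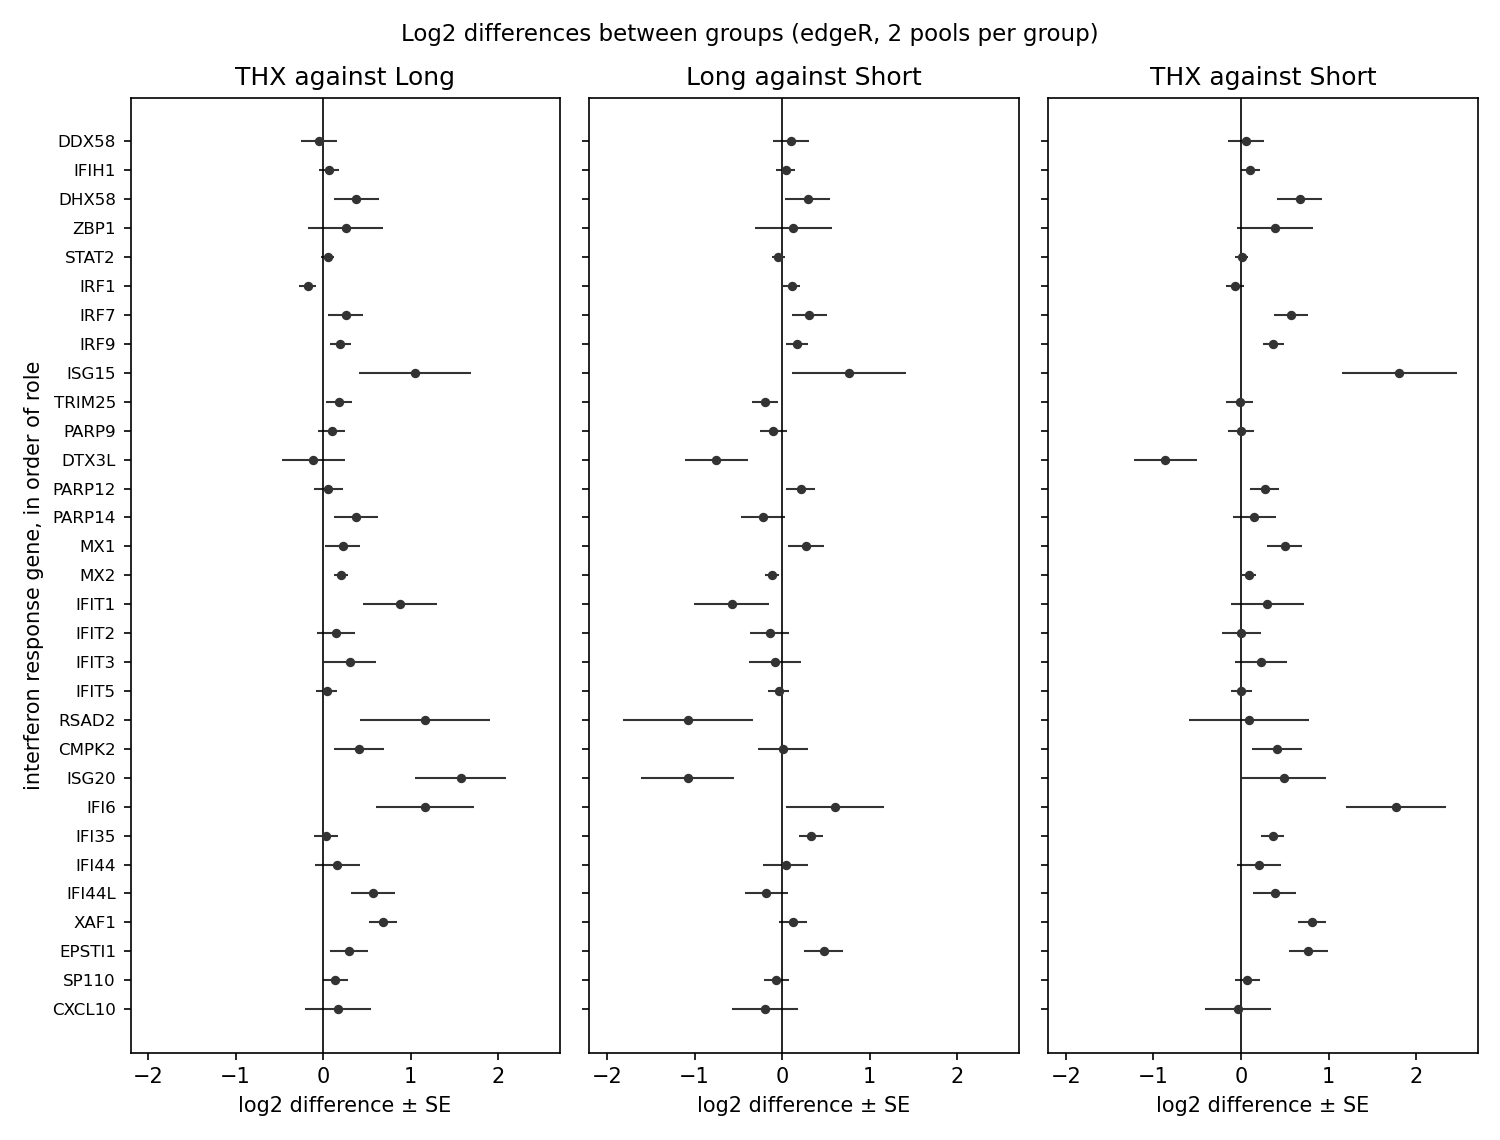
Log2 difference of each of the 31 genes (rows, in order of role) for THX against Long, Long against Short and THX against Short, with the SE as bars, from edgeR on 2 pools per group. No gene passed in any comparison; ISG15 and IFI6 lie furthest right in THX against Short, and DTX3L lies left in Long and in THX against Short.

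The comparison of Long with Short pools asks what day length does in ewes with a thyroid. None of the 31 genes passed in edgeR, and 0% of all tested genes did (adjusted p under 0.05 in 0 of 18019, unadjusted p under 0.05 in 2486, and 159 called by DESeq2). DESeq2 and limma-voom called none of the 31 either. An unadjusted p under 0.05 was found for 1 of the 31, IFI35 (log2 difference 0.33, SE 0.135, adjusted p = 0.357), against 13.8% of all tested genes (6.47% higher and 7.33% lower). The estimates were split, with 16 above and 15 below 0 and a median of 0.01, where all tested genes had a median of −0.00. Long and Short pools did not overlap for 11 of the 31 (6 above, 5 below), against 53.5% of all tested genes (26.7% above and 26.8% below). DTX3L was lower in both Long pools (log2 difference −0.75, SE 0.361, adjusted p = 0.386) and EPSTI1 higher in both (0.47, SE 0.221, adjusted p = 0.379). The median was 0.24 without Short pool 2, −0.13 without Short pool 1 and −0.07 without Long pool 2, so its sign depended on which pools were used.

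The THX and Short groups differ in both thyroid and day length, and the comparison shares its pools with the other comparisons. None of the 31 genes passed in edgeR, where 0.916% of all tested genes did (0.316% higher and 0.599% lower). The unadjusted p was under 0.05 for 10 genes, which is 32.3% of the 31, against 22.6% of all tested genes (10.8% higher and 11.8% lower). Of these, 9 were higher in THX pools (XAF1, EPSTI1, IFI6, IRF9, IRF7, ISG15, IFI35, DHX58 and MX1) and DTX3L was lower. ISG15 (1.81, SE 0.659, adjusted p = 0.177) and IFI6 (1.77, SE 0.570, adjusted p = 0.148) had the largest log2 differences. XAF1 had the lowest adjusted p (log2 difference 0.81, SE 0.161, adjusted p = 0.0721), which over the alternatives ran from 0.000433 to 0.327. DESeq2 called 2 of the 31, XAF1 and EPSTI1 (adjusted p = 0.000433 and 0.0153), beside 1761 of all 18019 tested genes. Limma-voom called none of the 31, beside 176 of all tested genes.

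Of the 31 genes 26 lay above 0 in THX relative to Short pools, with a median of 0.23, against 49% of all tested genes and a median of −0.01. The median was 0.04 without THX pool 1, the highest pool, and 0.05 without Short pool 1, the lowest, and 0.56 without Short pool 2. DTX3L had a log2 difference of −0.86 (SE 0.362, adjusted p = 0.217), and without THX pool 1 it was −1.61. THX and Short pools did not overlap for 10 of the 31, 9 above and 1 below, against 52.5% of all tested genes (25.7% above and 26.7% below). In 5 of the 31 (IRF9, MX2, IFI6, XAF1 and EPSTI1) both THX pools were higher than all Long and Short pools, which is 16.1% and compares with 11% of all tested genes. For IFI6 the gap between THX pool 2 and Long pool 2 was small, at 60.1 and 59.7 CPM.

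The other genes of the pathway were taken from a list beside the 31. Of 7 interferons listed, 4 (IFNB1, IFNW1, IFNL3 and IL29) were not matched by symbol and were not analysed here. Of the 3 matched, IFNE and IFNK had no count in any pool and IFNG, the type II interferon, had 1 count in THX pool 2 and none elsewhere. All 6 receptor subunits were measured and none passed in any comparison. IFNGR2, a subunit of the interferon gamma receptor, was at 58.2 and 70.0 CPM in THX pools, 58.4 and 49.8 CPM in Long pools, and 47.9 and 50.9 CPM in Short pools. IFNGR1, the other subunit, had a log2 difference of 0.13 in THX against Long, 0.12 in Long against Short and 0.25 in THX against Short (adjusted p = 0.803, 0.537 and 0.173). IFNLR1, a subunit of the receptor of type III interferons, was at 12.04 and 9.67 CPM in THX pools, 8.12 and 8.98 CPM in Long pools, and 10.6 and 10.8 CPM in Short pools. IFNAR1, of the type I receptor, was at −0.14 in THX against Short (adjusted p = 0.362).

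The receptor kinases were not highest in THX pool 1. JAK1, the kinase of all interferon receptors, was at 96.6 and 89.5 CPM in THX pools, 97.5 and 98.5 CPM in Long pools, and 116 and 109 CPM in Short pools. TYK2 and JAK2 were also lower in THX than in Short pools (log2 differences −0.16 and −0.28, adjusted p = 0.222 and 0.276) and lower in Long than in Short pools (−0.16 and −0.23, adjusted p = 0.364 and 0.466). STAT3 was at −0.05 in THX against Long (adjusted p = 0.977). None of these kinases, nor STAT3, passed in any comparison.

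None of the 6 inhibitors passed. SOCS1, a feedback inhibitor of the kinases, was at 6.99 and 8.22 CPM in THX pools, 9.47 and 10.9 CPM in Long pools, and 8.98 and 9.36 CPM in Short pools. SOCS1 was thus not highest in THX pool 1, where most of the 31 genes were. SOCS3, a related inhibitor, had log2 differences of 0.30 in THX against Long, 0.38 in Long against Short and 0.67 in THX against Short (adjusted p = 0.881, 0.558 and 0.224). PTPN11, a phosphatase, was at −0.04, −0.28 and −0.32 (adjusted p = 0.978, 0.342 and 0.137), and PIAS1, a further inhibitor, was at −0.16 in Long against Short and −0.18 in THX against Short. Of the genes of upstream sensing and signalling 12 were tested and none passed. TRAF6, an adaptor ligase of Toll-like receptors, was at 50.5 and 49.7 CPM in THX pools, 46.8 and 45.4 CPM in Long pools, and 42.2 and 38.8 CPM in Short pools, in that order without overlap (THX against Short 0.31, adjusted p = 0.104). TRAF3 was at −0.36 in THX against Short and −0.27 in Long against Short (adjusted p = 0.16 and 0.374), TICAM1 at 0.19 and MAVS at −0.15 in THX against Long, and TLR7 at −0.27 in Long against Short.

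A further list of induced genes had 38 tested members, of which none passed in any comparison. THX pool 1 was the highest pool for 17 of the 38 (44.7%) and Short pool 1 the lowest for 17. LGALS3BP, a secreted glycoprotein, was at 231 and 155 CPM in THX pools, 154 and 144 CPM in Long pools, and 121 and 140 CPM in Short pools. UBE2L6, the enzyme that passes ISG15 to its targets, was at 16.7 and 14.8 CPM in THX pools, 14.5 and 14.8 CPM in Long pools, and 8.54 and 12.1 CPM in Short pools. IFITM3, a membrane protein that blocks virus entry, named here by the gene table, was at 0.36 in Long against Short and TDRD7 at 0.21 in THX against Long (adjusted p = 0.342 and 0.438). CXCL9, a chemokine induced by interferon gamma, was at 4.96 and 3.34 CPM in THX pools, 4.73 and 5.94 CPM in Long pools, and 6.40 and 8.76 CPM in Short pools. Short pool 2 was the highest for CXCL9.

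Antigen processing genes in this further list, singled out after their values were seen, did not share the high level of THX pool 1. Of PSMB8, PSMB9, TAP1, TAP2, NLRC5 and CIITA, none of the 6 was highest in THX pool 1, 1 was higher there than in THX pool 2, and 4 were lowest in Short pool 1. TAP1, a peptide transporter, was at 28.8 and 31.9 CPM in THX pools, 35.4 and 37.4 CPM in Long pools, and 26.6 and 37.9 CPM in Short pools. TAP2, its partner, was at 69.0 and 69.2 CPM in THX pools, 79.9 and 76.7 CPM in Long pools, and 60.0 and 63.6 CPM in Short pools (THX against Long −0.18 and Long against Short 0.34, adjusted p = 0.531 and 0.342). Both THX pools were lower than both Long pools for both transporters. CIITA, the regulator of class II genes, and NLRC5, that of class I genes, were the 2 not lowest in Short pool 1.

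Immune cell markers were compared with the 31 genes pool by pool, where in pooled tissue fewer cells of a type and less RNA per cell cannot be told apart. The summed level of 16 lymphocyte markers was 38.6 and 47.2 CPM in THX pools, 51.1 and 52.8 CPM in Long pools, and 42.9 and 58.0 CPM in Short pools, and none of the markers was at 0 throughout. THX pool 1, the highest pool of the interferon response genes, thus had the lowest summed lymphocyte level. Of the 15 tested markers 14 were lower in THX pool 1 than in THX pool 2. For only 4 of the 15 did the counting interval of the THX ratio lie below 1, against 29.7% of all tested genes. The gap between THX pools was thus within counting error for most single markers. In Short pools 14 of the 15 were lower in pool 1, the same order as the interferon response genes. For 11 of the 15 the interval of the Short ratio lay below 1, against 23.9% of all tested genes. The 13 macrophage and microglia markers matched summed to 328 and 351 CPM in THX pools, 371 and 388 CPM in Long pools, and 308 and 345 CPM in Short pools, with 7 lowest in Short pool 1 and 2 highest in THX pool 1. The part of these cells in the level of Short pool 1 was not tested.

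Granulocyte and mast cell markers (7 matched, 5 tested) summed to 32.5 and 31.3 CPM in THX pools, 57.2 and 49.2 CPM in Long pools, and 77.6 and 71.0 CPM in Short pools. KIT and CXCR2, at means of 34.5 and 16.7 CPM, made up nearly all of that sum. Of the 5 tested markers 3 lay above 0 and 2 below in THX against Long (median 0.06). In THX against Short 2 lay above and 3 below (median −0.15). The mast cell markers MS4A2 and CPA3 were at means of only 0.147 and 0.0279 CPM. KIT, the mast cell growth factor receptor, fell in THX pools by edgeR (log2 difference −1.50 against Long and −2.06 against Short, adjusted p = 0.0318 and 0.0139), and both THX pools were low in it. It was at 15.4 and 10.5 CPM in THX pools, 37.6 and 35.7 CPM in Long pools, and 57.4 and 50.3 CPM in Short pools.

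Dendritic cell markers (8 matched, none at 0 throughout) summed to 62.0 and 63.0 CPM in THX pools, 62.9 and 68.6 CPM in Long pools, and 69.4 and 69.4 CPM in Short pools, with none highest in THX pool 1. Endothelial markers (8 matched) summed to 687 and 665 CPM in THX pools, 702 and 652 CPM in Long pools, and 643 and 780 CPM in Short pools. Markers of fibroblasts and leptomeninges (7 matched) summed to 656 and 790 CPM in THX pools, 1023 and 941 CPM in Long pools, and 893 and 1099 CPM in Short pools. Both THX pools were below all Long and Short pools in the summed fibroblast markers, and THX pool 1 was the lowest. All 7 fibroblast markers lay below 0 in THX against Long and in THX against Short. In each, edgeR called 1 of them lower (adjusted p = 0.0314 and 0.0351). Short pool 1 had the lowest endothelial sum, with 7 of 8 endothelial markers below their level in Short pool 2. The median centred log2 level of the endothelial markers was about as low in THX pool 2 (−0.0882) as in Short pool 1 (−0.0873). The 5 neuron markers summed to 331 and 339 CPM in THX pools, 293 and 315 CPM in Long pools, and 304 and 297 CPM in Short pools. Nearly all of that sum was SNAP25, at a mean of 302 CPM. Their median centred log2 level was highest in THX pool 1 (0.27, against −0.17 in THX pool 2). However, 2 of the 5 markers were highest in THX pool 1 and 2 in THX pool 2. SYT1, NEFL and GAD1 were at means of only 0.41, 0.37 and 0.19 CPM, so this median rests largely on genes with few counts. Ependymal markers (5 matched) summed to 545 and 611 CPM in THX pools, 496 and 429 CPM in Long pools, and 443 and 427 CPM in Short pools. Their sum was thus higher in both THX pools and was not highest in pool 1. Most of it was FOXJ1, at a mean of 385 CPM. All 4 tested markers lay above 0 in THX against Long, and 3 lay above and 1 below in THX against Short. Red blood cell markers (4 matched) summed to 54.2 CPM in Long pool 2 and to at most 4.59 CPM in each other pool. Of the 9 tested choroid plexus epithelium markers 4 lay above 0 and 5 below in THX against Long. In THX against Short 3 lay above and 6 below. By edgeR 1 and 2 of them were called lower in these comparisons, against 0.233% and 0.599% of all tested genes. The part of these cell types in the levels of the interferon response genes was not tested.

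**Figure D5:**
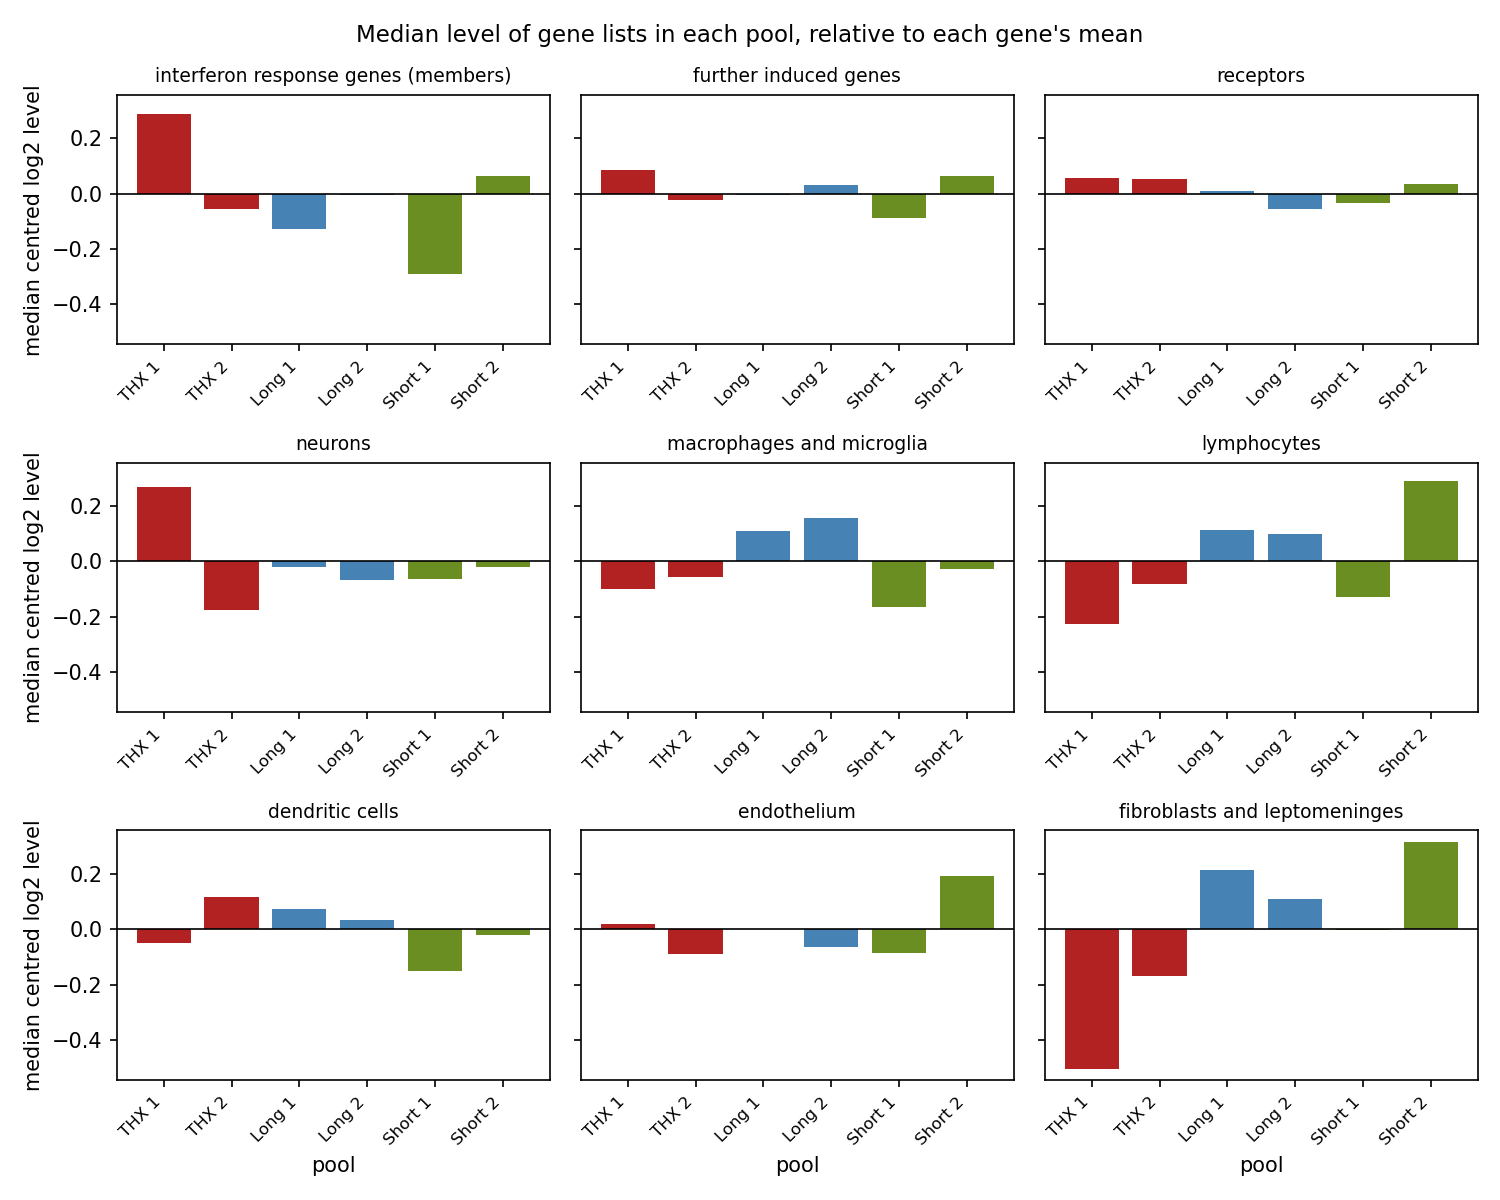
Median level of the 31 interferon response genes, of other genes of the pathway and of cell type markers in each pool, as log2(CPM + 0.5) centred on each gene's mean over the 6 pools. The interferon response genes are highest in THX pool 1 (0.29) and lowest in Short pool 1 (−0.29). Of the 6 cell marker lists plotted, the neuron markers are also highest in THX pool 1 (0.27) and the other 5 are not. The neuron median rests largely on SYT1, NEFL and GAD1, which had few counts (means of 0.41, 0.37 and 0.19 CPM).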

How the data were processed

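PolyA RNA of choroid plexus was sequenced in 6 pools from stranded libraries (per the labels, an mRNA kit). Per the submitters' processing notes, the tools were TopHat2 2.1.1, featureCounts 2.0.0, bcl2fastq 2.20, FastQC 0.11.8, SAMtools 1.9 and MultiQC 1.9. Genome build, annotation and strand setting: not given in the sources used here. The deposited table holds each gene's read count, unnormalised.

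The default low-count filter of edgeR 4.0.16 (R 4.3.3) was applied, then TMM scaling, and all 6 pools entered 1 quasi-likelihood fit with the group as its only term (3 residual and 3.96 prior degrees of freedom). The 3 comparisons used its two-sided F test with Benjamini-Hochberg adjustment over all 18019 tested genes and a threshold of 0.05; the SE was taken from the F statistic. The procedure was tested on simulated data, which held no shift shared by genes within a pool. That simulation thus does not cover pool differences like those of the 31 genes. Alternatives were DESeq2 1.42.0, limma-voom 3.58.1, other scaling, no filter, the 4 pools compared, a pool number term and the omission of each pool. Nothing in the labels ties pools of the same number, and p-values rest on how far pools of ewes differ; ewes were not measured singly. Every member found is named with its pool values; of other pathway genes, those called and the 3 with the lowest p of each list and comparison are named, apart from 1 gene that is not reported here. The members and lists were chosen with earlier results of these data known. Identifiers were matched to a sheep gene table for names alone, and all 31 members were in it. Figures were drawn with matplotlib 3.10.9.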

Additional observations from a re-analysis of the deposited data

How the results depend on the processing

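No alternative called more than 2 of the 31 genes. In THX against Long, 51 genes were called in all, 204 without the filter on low counts, 448 by DESeq2 (1 of the 31, XAF1), 22 in the 4 pools compared, and from 2 to 37 with 1 pool left out. The median log2 difference of the 31 ran from −0.041 (without THX pool 1) to 0.40 (without THX pool 2). In Long against Short, DESeq2 called 159 and leaving out 1 pool gave from 0 to 4, and the median of the 31 ran from −0.13 to 0.24. In THX against Short, 165 genes were called, 908 without the filter (2 of the 31, XAF1 and IFI6), 1761 by DESeq2 (2 of the 31, XAF1 and EPSTI1), 11 in the 4 pools compared, and from 10 (without Short pool 1) to 1087 (without THX pool 1) with 1 pool left out, with from 0 to 1 of the 31 (DTX3L) and medians from 0.043 to 0.56. The fit with the pool number as a replicate block called 48, 0 and 392 genes in the 3 comparisons, with none of the 31; the deviations of same-numbered pools correlated at 0.097 (THX and Long), 0.29 (THX and Short) and −0.063 (Long and Short), so no consistent pairing by number was seen. A lone pool was assumed to vary like the others, and the cause of these changes was not tested.

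The pool counts were recomputed under choices made after seeing the data. With total counts as the scale, 22 of the 31 were highest in THX pool 1 and 15 lowest in Short pool 1, and with DESeq2 size factors 24 and 17. Among 29 members with a mean of at least 1 CPM these were 22 and 17.

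Signs of a number of estimates turned when 1 pool was left out. Not all were small, since ISG15 in THX against Long was at 1.05 with all pools. In THX against Long the log2 difference then ran from −0.26 to 0.14 for DDX58, −0.049 to 0.18 for IFIH1, −0.091 to 0.74 for DHX58, −0.094 to 0.64 for ZBP1, −0.042 to 0.51 for IRF7, −0.26 to 1.73 for ISG15, −0.082 to 0.40 for TRIM25, −0.12 to 0.28 for PARP9, −0.86 to 0.39 for DTX3L, −0.12 to 0.22 for PARP12, −0.12 to 0.74 for PARP14, −0.041 to 0.45 for MX1, −0.041 to 0.36 for IFIT2, −0.14 to 0.21 for IFIT5, −0.12 to 0.17 for IFI35 and −0.057 to 0.36 for IFI44. In Long against Short it ran from −0.10 to 0.34 for DDX58, −0.028 to 0.11 for IFIH1, −0.34 to 0.78 for ZBP1, −0.35 to 0.045 for IFIT2, −0.47 to 0.44 for IFIT3, −0.36 to 0.49 for CMPK2, −0.25 to 0.40 for IFI44, −0.38 to 0.037 for IFI44L, −0.14 to 0.00381 for SP110 and −0.71 to 0.58 for CXCL10. In THX against Short it ran from −0.15 to 0.29 for DDX58, −0.00571 to 0.22 for IFIH1, −0.086 to 1.04 for ZBP1, −0.027 to 0.042 for STAT2, −0.16 to 0.029 for IRF1, −0.27 to 0.21 for TRIM25, −0.21 to 0.19 for PARP9, −0.33 to 0.53 for PARP14, −0.31 to 0.86 for IFIT1, −0.17 to 0.19 for IFIT2, −0.16 to 0.75 for IFIT3, −0.18 to 0.18 for IFIT5, −0.49 to 0.86 for RSAD2, −0.088 to 0.56 for IFI44, −0.014 to 0.17 for SP110 and −0.55 to 0.75 for CXCL10. Limma-voom gave 0.063 for IFIT3 and 0.049 for CXCL10 in Long against Short, and −0.013 for IFIT5 and 0.21 for CXCL10 in THX against Short. PARP9 in THX against Short was at 0.00341 with DESeq2 size factors, 0.00345 by DESeq2 and 0.00434 in the 4 pools compared, and under the block IFIT5 was at −0.00124 and CXCL10 at 0.061.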
